A study of Mus musculus with 13 samples.

Results

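The circadian clock genes described here are Arntl (also called Bmal1), Clock, Npas2, Per1, Per2, Per3, Cry1, Nr1d1, Dbp and Tef, chosen by symbol from the gene table of a mouse liver study. All 10 symbols were found among the 22048 genes of the table, and all 10 passed the filter on low counts. RNA-seq was made from 13 samples of whole mouse liver in 3 groups. The first group was 6 control livers, labelled as not depleted of hepatic stellate cells, pericytes that store vitamin A (replicates 1, 2 and 6 male, replicates 3, 4 and 5 female). The second was 4 livers depleted of those cells (replicate 3 male, replicates 1, 2 and 4 female). The third was 3 livers, not depleted, taken 72 h after partial hepatectomy, an operation that removes liver lobes and is followed by regrowth (replicates 1 and 2 male, replicate 3 female). Strain, genotype, age, the agent used for depletion, any sham operation, the hour of collection, the light schedule and the feeding state are not given in the sources used here. A difference in collection hour or feeding between groups therefore cannot be told apart from the interventions, and the clock genes are given library by library for that reason. The labels do not say that each library came from its own animal beyond giving each a sample and a sex, so p-values measure the spread between these samples.

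The mammalian clock is a transcriptional feedback loop that runs in nearly every cell, hepatocytes included. ARNTL pairs with CLOCK or NPAS2 and binds E-box sequences, which drives the Per and Cry genes as well as Nr1d1, Dbp and Tef. The PER and CRY proteins then block the pair that made them. NR1D1 (REV-ERB alpha) binds ROR elements and represses Arntl, Clock, Npas2 and Cry1. DBP and TEF are PAR bZIP factors that bind D-box sequences and carry the rhythm to metabolic genes of the liver. In a normal mouse liver Arntl, Clock and Npas2 peak near the end of the night, when Nr1d1, Dbp and Per levels are low, and Nr1d1 and Dbp peak during the day.

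The promoters of the members were searched for these sequences. RefSeq promoter entries of GRCm38.p6 were found for 9 of the 10 genes (14 entries, since some genes have several starts), and Per2 had no entry. The 250 bases before each start were searched on both strands for the E-box CACGTG, the D-box TTATGTAA and the ROR element core TAGGTCA, 3 motifs none of which contains another. The E-box was present in 4 of the 14 member entries, those of Per1, Cry1 and 2 starts of Tef, against 6.02% of all 32851 promoters in the table. The D-box was present in the entry of Per3, at 2 positions, against 0.819% of all promoters. The ROR element core was in none of the 14 entries, against 2.23% of all promoters, which says only that these letters are not in these windows. The windows of 30 bases around each match follow, 5′ to 3′ on the gene's strand, with the motif in capitals. They lie at chr11:69098771-69098800 (Per1, plus strand), chr10:85185097-85185126 (Cry1, minus), chr15:81802534-81802563 and chr15:81811264-81811293 (Tef, plus), and chr4:151044852-151044881 and chr4:151044805-151044834 (Per3, minus).
Per1 E-box: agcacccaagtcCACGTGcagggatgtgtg
Cry1 E-box: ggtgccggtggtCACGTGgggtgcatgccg
Tef E-box, first start: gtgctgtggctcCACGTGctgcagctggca
Tef E-box, second start: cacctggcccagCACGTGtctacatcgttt
Per3 D-box, farther from the start: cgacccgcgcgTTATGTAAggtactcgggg
Per3 D-box, nearer to the start: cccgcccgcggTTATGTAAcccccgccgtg
These windows are shown because the E-box is the sequence bound by the ARNTL pairs and the D-box that bound by DBP and TEF. A match is a description of the letters and not a measured binding site.

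Sequencing gave 35360991 to 51008737 counts per library, so that 3 counts, the smallest level taken as detectable, correspond to 0.0588 to 0.0848 CPM (counts scaled to a common library size). These floors cover counting error only. The markers of hepatocytes summed to 66570 to 170900 CPM in every library. The 8 markers of stellate cells (Lrat, Reln, Colec10, Colec11, Des, Hand2, Ngfr and Pdgfrb) summed to 89.7 to 298 CPM in controls and to 0.650 to 17.4 CPM in depleted livers, where all 8 fell, and the highest depleted value belonged to replicate 4. Control replicate 6 had the lowest summed levels of stellate, Kupffer and sinusoidal endothelial markers among controls (89.7, 50.5 and 67.5 CPM).

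**Figure D1:**
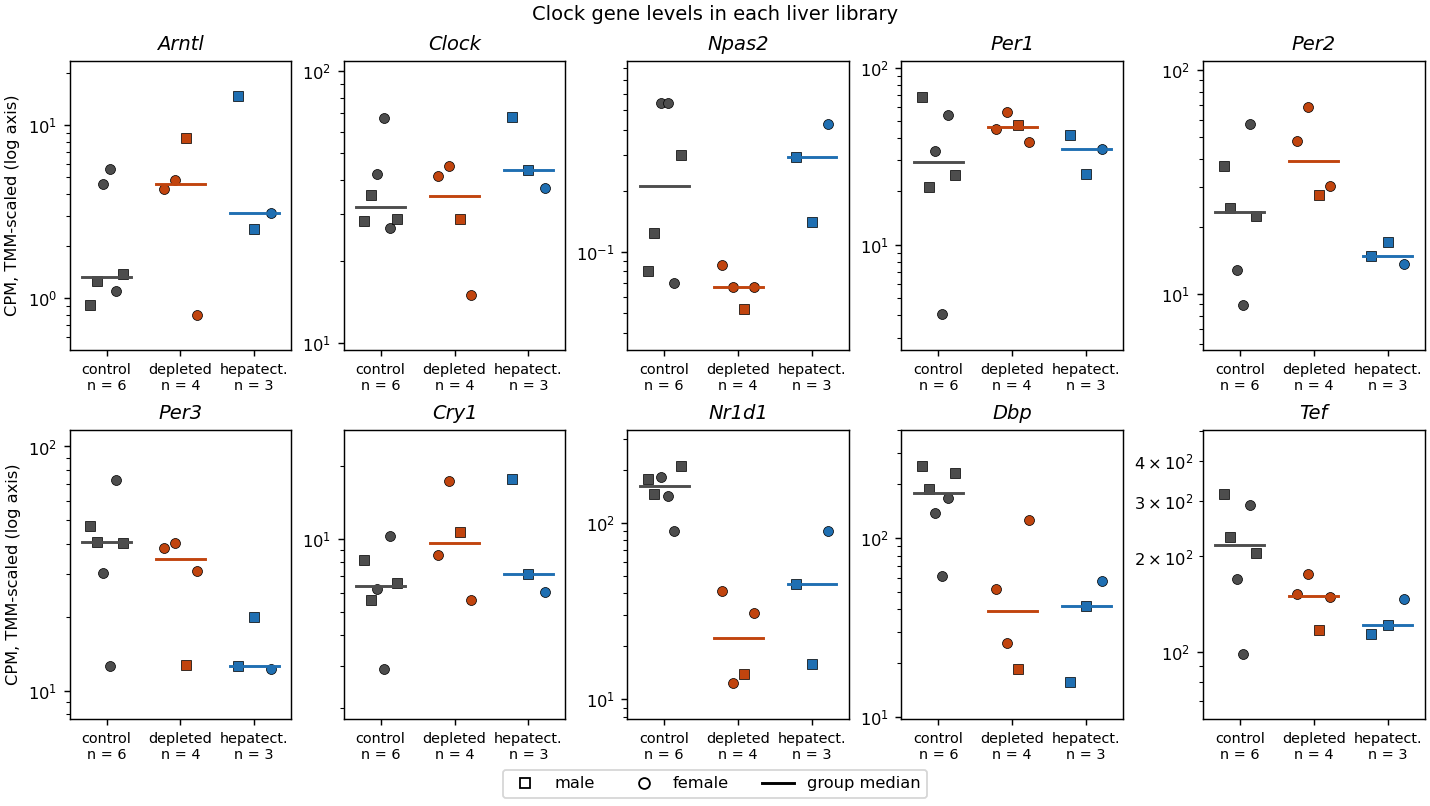
Level of each clock gene in each library, as TMM-scaled CPM on a log axis. Squares are male livers, circles female livers and bars the group medians. The depleted points of Nr1d1 (12.4 to 41.3 CPM) all lie below the control points (90.3 to 211 CPM), while those of Per1 (37.9 to 56.3 CPM) lie within the control range.

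Levels of the 10 genes in control liver were first compared per length, as CPM per kilobase (RPKM) with the table's own exon lengths. The mean level in the 6 controls was 58.7 ± 23.3 RPKM (SD) for Dbp, 51.4 ± 13.5 for Nr1d1 and 27.7 ± 10.1 for Tef. Per1 at 6.09 ± 4.12 RPKM, Per2 at 4.64 ± 3.05 and Per3 at 4.24 ± 2.08 came next. Clock stood at 2.76 ± 1.13 RPKM, Cry1 at 2.19 ± 0.820, Arntl at 0.850 ± 0.706 and Npas2 at 0.0576 ± 0.0462. The control ranges of neighbours in this order overlapped except at 2 steps, between Tef (lowest control 12.5 RPKM) and Per1 (highest 12.1 RPKM) and between Arntl (lowest 0.314 RPKM) and Npas2 (highest 0.113 RPKM). Dbp, Nr1d1 and Tef were the most abundant of the 10 transcripts, and the activators Arntl and Npas2 the least abundant.

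Clock genes had a wider spread between control livers than the median gene. The SD of log2 CPM over the 6 controls had a median of 0.79 over the clock genes and 0.31 over the 13831 genes tested. Per1 had the widest spread, with an SD of 1.44 that 2.05% of tested genes exceeded. Nr1d1 had the narrowest, with an SD of 0.43 that 35.3% of tested genes exceeded. Control replicate 4 had the lowest control level of Per1, Per2, Per3, Cry1, Dbp and Tef and the highest of Arntl and Clock. Its proliferation markers summed to 38.7 CPM, against 2.34 to 16.3 CPM in the other controls, and their part in its clock gene levels was not tested. Control replicates 1 and 5 held the highest levels of these 6 genes: replicate 1 of Per1, Dbp and Tef, and replicate 5 of Per2, Per3 and Cry1.

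Depletion of stellate cells was compared with control to ask which clock genes differ when those cells are missing. In the edgeR test Nr1d1 fell, Npas2 was called lower on 3 or 4 counts per depleted liver, and the other 8 clock genes did not pass the threshold. Npas2 passed the filter on low counts through the control and hepatectomised livers, so its call is a description of a gene near the floor. DESeq2 and limma-voom also called Dbp, and limma-voom did not call Npas2. The 2 of 10 genes called in edgeR (20%, Npas2 among them) stand beside 33.9% of all tested genes. The share of clock genes called was thus no higher than the share of genes at large. Unadjusted p-values were under 0.05 for 3 of the 10 genes (Nr1d1, Npas2 and Dbp), against 43.6% of all tested genes. The median size of the log2 fold change, sign ignored, was 0.69 over the clock genes and 0.39 over all tested genes. The CPM ranges of depleted and control livers did not overlap for 1 clock gene, Nr1d1, against 28.4% of all tested genes. In bulk liver, fewer cells of a type and less RNA per cell cannot be told apart.

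Partial hepatectomy was compared with the same controls to set a regenerating liver with its stellate cells beside the depleted one. No clock gene passed the threshold in the edgeR test, against 8.42% of all tested genes. Unadjusted p-values were under 0.05 for 4 genes (Nr1d1, Dbp, Per3 and Tef), each with a lower mean after hepatectomy, against 24.3% of all tested genes. DESeq2 called 3 of them (Per3, Nr1d1 and Dbp) and limma-voom 2 (Nr1d1 and Dbp), so whether these genes count as changed depends on the tool. With scaling by library size alone, which shifted the all-gene median from -0.02 to -0.24 (log2), all 4 passed. The CPM ranges did not overlap for 2 clock genes (Nr1d1 and Dbp), against 13.7% of all tested genes, and the median size of the fold change was 0.80 on the log2 scale against 0.30 over all tested genes. With the replicate number of the labels as a block, the pairing gave 632 called genes in place of 1164, and still none of the clock genes.

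**Figure D2:**
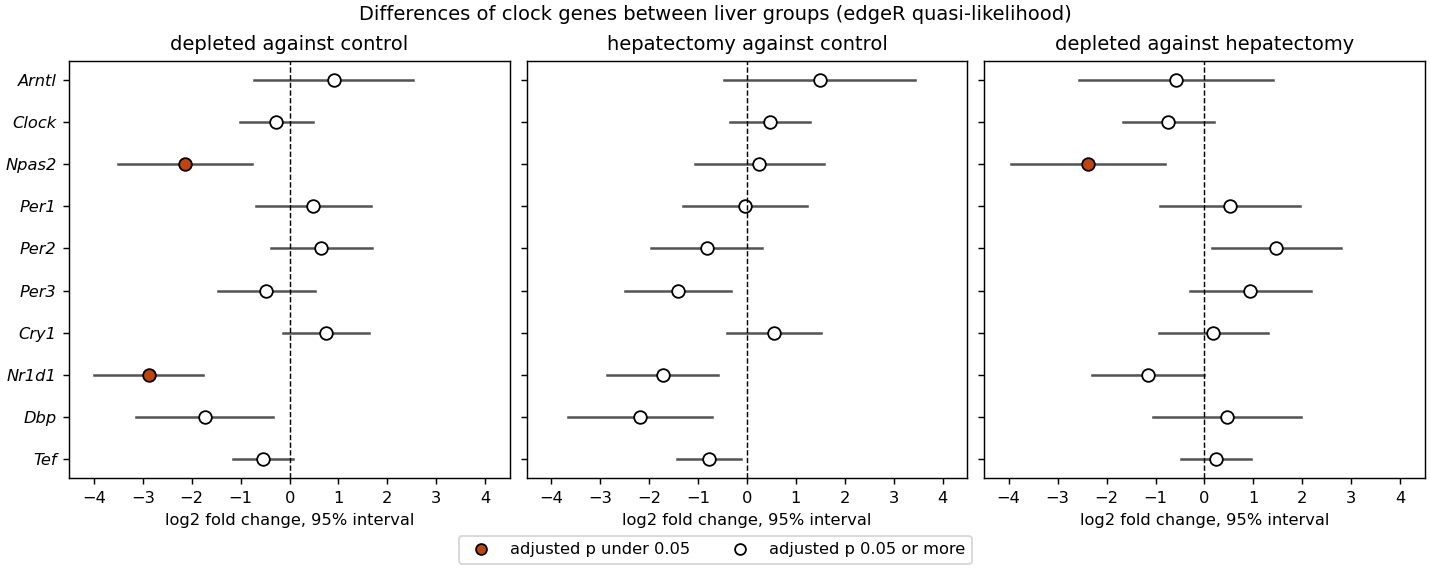
Log2 fold change of each clock gene in 3 comparisons, with 95% intervals from the edgeR quasi-likelihood fit. Filled points passed an adjusted p of 0.05. Nr1d1 (-2.88) and Npas2 (-2.13) are filled for depleted against control, none for hepatectomy against control, and Npas2 (-2.38) for depleted against hepatectomy. Npas2 had 3 or 4 counts per depleted liver and passed the filter on low counts through the other 2 groups.

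Nr1d1, the repressor of the stabilising loop (ENSMUSG00000020889.11, chr11:98767932-98775333, minus strand, GRCm38), showed the largest difference of the 10 genes after depletion. Its level was 178, 146, 181, 143, 90.3 and 211 CPM in control replicates 1 to 6. It was 41.3, 12.4, 14.0 and 30.8 CPM in depleted replicates 1 to 4. All 4 depleted livers lay below the lowest control. The log2 fold change was -2.88 ± 0.51 (SE), a 7.34-fold lower level, with an adjusted p of 0.00104 in edgeR's quasi-likelihood test. After hepatectomy the level was 45.0, 15.8 and 89.9 CPM, and the highest of these lay just under control replicate 5. That difference was -1.72 ± 0.52 on the log2 scale, with an adjusted p of 0.0614. It passed without control replicate 5 (-1.91, adjusted p = 0.0454) and without hepatectomy replicate 3 (-2.35, adjusted p = 0.0415), the pair of libraries whose values nearly meet. In all it passed in 5 of 22 alternative fits, and it shrank to -1.28 without hepatectomy replicate 2 (adjusted p = 0.201). In female livers alone, with 1 hepatectomised liver, it shrank to -0.60. The direct comparison of depleted with hepatectomised livers gave -1.15 ± 0.52, with an adjusted p of 0.134, so the 2 differences from control, which share their controls, were not separated for Nr1d1. It passed in 1 of 22 alternative fits, without hepatectomy replicate 2 (-1.50, adjusted p = 0.0489), and shrank to -0.35 (0.752) without hepatectomy replicate 3.

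The fall of Nr1d1 after depletion passed in all 22 alternative fits, with log2 fold changes from -3.16 to -2.30. Its smallest size came from female livers alone, where the adjusted p was 0.0124. Nr1d1 ends inside the overlapping gene Thra (chr11:98740638-98769006, opposite strand), which encodes a thyroid hormone receptor, and whether counting used strand is not stated. Thra stood at 12.7 ± 3.44 CPM in controls and 8.87 ± 1.98 CPM in depleted livers, a log2 fold change of -0.57 ± 0.20 with an adjusted p of 0.0468. The level of Thra in controls was below that of Nr1d1 in every control library.

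Markers of other cell types differed in the same comparison, in which 33.9% of all tested genes were called (8.42% after hepatectomy). Beside the stellate markers above, the 5 T cell markers summed to 2.02 to 3.35 CPM in controls and to 28.3 to 68.8 CPM in depleted livers, and all 5 rose. The monocyte and neutrophil markers summed to 1.15 to 6.30 CPM in controls and to 163 to 279 CPM in depleted livers, and all 5 that were tested rose (Mpo was not tested). Kupffer markers summed to 50.5 to 435 CPM and to 494 to 1191 CPM, with 2 of 5 risen. Proliferation markers summed to 2.34 to 38.7 CPM in controls, 42.5 to 115 CPM in depleted livers, where 3 of 5 rose, and 61.4 to 384 CPM after hepatectomy, where all 5 rose. Of the cholangiocyte markers 1 of 4 rose after depletion and 2 of 4 after hepatectomy. Of the 5 sinusoidal endothelial markers 0 passed after depletion in edgeR (1 at an unadjusted p under 0.05, 1 with DESeq2 and 0 with limma-voom), and of the 6 hepatocyte markers 0 passed (1 unadjusted, 0 with either other tool). After hepatectomy 2 of 5 monocyte and neutrophil markers rose, while T cell, stellate, Kupffer, endothelial and hepatocyte markers had 0 calls in edgeR, with 0, 0, 1, 0 and 2 at an unadjusted p under 0.05, 1 Kupffer marker called by DESeq2 and 0 of these by limma-voom. No marker list was at 0 throughout a group; Colec10, Colec11, Des, Hand2 and Ngfr were at 0 in some depleted libraries, and Mpo and Elane in some controls. The part of these cells in the Nr1d1 and Npas2 results was not tested.

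Among the activators, Arntl (ENSMUSG00000055116.7, chr7:113207465-113314126, plus strand) split the livers within each group. Its level was 0.911, 1.26, 4.60, 5.55, 1.10 and 1.38 CPM in control replicates 1 to 6, with replicates 3 and 4 above the rest. Depleted replicates 1 to 4 had 4.28, 4.82, 8.42 and 0.802 CPM, the last below every control. Hepatectomy replicates 1 to 3 had 14.7, 2.53 and 3.09 CPM, the first above every other liver. The log2 fold changes of 0.90 ± 0.75 after depletion and 1.49 ± 0.90 after hepatectomy were of the size of this spread (adjusted p = 0.387 and 0.337). Without 1 library they ran from 0.1425 to 1.312 and from 0.2675 to 2.125. In female livers alone both turned negative, to -0.18 (adjusted p = 0.900) and, with 1 hepatectomised liver, to -0.27.

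Clock, which encodes the partner of ARNTL (ENSMUSG00000029238.9, chr5:76209868-76304792, minus strand), ranged from 26.6 to 67.2 CPM in controls with a median of 31.8. It stood at 41.2, 44.9, 28.6 and 15.1 CPM in depleted replicates 1 to 4 and at 68.2, 43.3 and 37.1 CPM in hepatectomy replicates 1 to 3. The groups overlapped, and the 95% interval of the log2 fold change ran from -1.01 to 0.47 after depletion and from -0.35 to 1.28 after hepatectomy. Depleted replicate 4 was lowest for Clock as it was for Arntl, and hepatectomy replicate 1 was highest for both.

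Npas2, a paralog of Clock (ENSMUSG00000026077.13, chr1:39193731-39363236, plus strand), was close to the detection floor. It had 3, 5, 23, 24, 3 and 10 counts in control replicates 1 to 6, 4, 3, 3 and 3 counts in depleted replicates, and 10, 5 and 17 counts in hepatectomy replicates. Depleted livers were uniformly low, but control replicates 1 and 5 were as low, so the groups overlapped. The summed counts of 13 in 4 depleted livers and 68 in 6 controls gave a ratio of rates of 0.256 (95% interval 0.130 to 0.468, counting error only). Npas2 passed the filter on low counts through the control and hepatectomised livers, and with only depleted and control livers it did not pass, so its call is a description of a gene near the floor. The fitted log2 fold change was -2.13 ± 0.63, with an adjusted p of 0.0199. The call was lost with limma-voom (adjusted p = 0.0665), in female livers alone (0.0930), without control replicate 3 (0.0515) and without depleted replicate 2 (0.0503). After hepatectomy Npas2 differed from control by 0.25 ± 0.61 on the log2 scale, with an adjusted p of 0.845.

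Npas2 was also the clock gene that passed the threshold between the depleted and the hepatectomised livers, 1 of 10 against 23.4% of all tested genes, with unadjusted p-values under 0.05 for 3 clock genes and 36.1% of all tested genes. The log2 fold change was -2.38 ± 0.73 with an adjusted p of 0.0323. The ranges of 0.0524 to 0.0857 and 0.140 to 0.424 CPM did not overlap, the first of them at the floor, with 3 or 4 counts per liver. The summed counts of 13 and 32 gave a ratio of rates of 0.290 (95% interval 0.139 to 0.567, counting error only, without the spread between livers). The filter applies here as well, since Npas2 did not pass it with only these 2 groups. This call did not survive the removal of any 1 depleted liver (adjusted p = 0.0520 to 0.0761), nor that of hepatectomy replicate 1 (0.0772) or 3 (0.107). It was also lost with scaling by library size (0.0530), with limma-voom (0.0555), without the sex term (0.0636) and in female livers alone (-2.50, with 1 hepatectomised liver).

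The Period genes encode the repressors that accumulate and shut down the activators, and none of the 3 passed in any comparison in edgeR (DESeq2 called Per3 after hepatectomy and Per2 between the interventions). Per1 (ENSMUSG00000020893.15, chr11:69095217-69109960, plus strand), which also responds quickly to hormones and feeding, spanned 67.9, 21.2, 33.8, 4.07, 53.8 and 24.8 CPM over the controls, a 16.7-fold range. Depleted livers sat at 44.9, 56.3, 47.2 and 37.9 CPM and hepatectomised livers at 41.4, 25.0 and 34.6 CPM, both inside that range. The log2 fold changes were 0.49 ± 0.54 and -0.04 ± 0.58.

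Per2 (ENSMUSG00000055866.9, chr1:91415982-91459324, minus strand) ran from 8.97 to 57.7 CPM in controls with a median of 23.3. It stood at 48.3, 68.5, 27.6 and 30.4 CPM in depleted and at 14.8, 17.1 and 13.6 CPM in hepatectomised livers, so that every depleted liver was above every hepatectomised one while both sets overlapped the controls. The direct difference was 1.47 ± 0.61 on the log2 scale with an adjusted p of 0.101. It passed with DESeq2 (1.48, adjusted p = 0.0257), with scaling by library size (1.76, 0.0431), with the replicate block (1.64, 0.0104) and without control replicate 5 (1.78, 0.0227), which makes 4 of 22 alternative fits. Against control, the depleted livers differed by 0.65 ± 0.48 (adjusted p = 0.325), without control replicate 5 by 1.36 (0.0362) and with the replicate block by 1.14 (0.0217). These were the 2 of 22 alternative fits that passed, and the difference shrank to 0.37 without control replicate 4 (0.536), to 0.38 without depleted replicate 2 (0.604) and to 0.42 without control replicate 3 (0.547).

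Per3 (ENSMUSG00000028957.10, chr4:151003652-151044665, minus strand) ran from 12.6 to 73.2 CPM in controls with a median of 40.5. It stood at 38.3, 40.1, 12.8 and 31.0 CPM in depleted livers and at 12.7, 20.0 and 12.3 CPM after hepatectomy. The hepatectomised livers lay beside control replicate 4 and below the other 5 controls. Their log2 fold change was -1.41 ± 0.50 with an adjusted p of 0.103 (0.0233 without control replicate 4, at -1.56, and passed in 3 of 22 alternative fits), and that of the depleted livers -0.48 ± 0.46 with 0.457. Without 1 library, the difference of the depleted livers ran from -0.80 to -0.003. Per3 lies within the annotated span of Camta1 on the same strand, whose level of 3.37 ± 0.979 CPM in controls was below that of Per3 and differed by -0.12 ± 0.23 after depletion.

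Cry1, the cryptochrome among the members (ENSMUSG00000020038.9, chr10:85131700-85185064, minus strand), ran from 2.90 to 10.2 CPM in controls with a median of 6.36. Depleted livers had 8.59, 17.2, 10.7 and 5.57 CPM, 2 of them above all controls. Hepatectomised livers had 17.5, 7.13 and 6.06 CPM, 1 of them above all controls. The log2 fold changes of 0.74 ± 0.40 and 0.56 ± 0.44 did not pass (adjusted p = 0.181 and 0.478), with 95% intervals from -0.14 to 1.62 and from -0.41 to 1.52. Without 1 library they ran from 0.36 to 1.07 and from -0.003677 to 0.887.

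Of the output factors, Dbp (ENSMUSG00000059824.8, chr7:45705088-45710203, plus strand) had lower mean levels in both interventions. Its level was 251.5, 188, 138, 61.2, 167 and 231 CPM in control replicates 1 to 6. It was 52.1, 26.1, 18.6 and 125 CPM in depleted replicates 1 to 4, where replicate 4 alone reached the control range. It was 15.7, 42.0 and 57.7 CPM after hepatectomy, all below the lowest control. The log2 fold change of -1.73 ± 0.64 after depletion had an adjusted p of 0.0563, just above the threshold. It passed with DESeq2 (0.00318), with limma-voom (0.0148), without the sex term (0.0389), without control replicate 4 (0.0205) and without depleted replicate 4 (-2.43, 0.00750), and did not pass in the other 17 of 22 alternative fits. It shrank to -1.19 without depleted replicate 3 (adjusted p = 0.225) and to -0.86 in female livers alone (0.360). The fold change of -2.19 ± 0.67 after hepatectomy had an adjusted p of 0.0662 and passed with DESeq2 (0.00156), with limma-voom (0.0441), without control replicate 4 (0.0309) and without depleted replicate 4 (0.0304), which enters that comparison through the shared dispersion and sex term. It also passed with scaling by library size (0.0378), which makes 5 of 22 alternative fits. In female livers alone, with 1 hepatectomised liver, it shrank to -1.07. Dbp overlaps the end of Sphk2 on the opposite strand, whose level of 38.3 ± 14.7 CPM in controls differed by -0.24 ± 0.23 after depletion.

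Tef, the other PAR bZIP factor (ENSMUSG00000022389.12, chr15:81802421-81826863, plus strand), ran from 98.1 to 314 CPM in controls with a median of 217. Depleted livers had 152, 176, 117 and 149 CPM and hepatectomised livers 114, 122 and 147 CPM, all above control replicate 4 and below the other controls except for depleted replicate 2, which also exceeded control replicate 3 (170 CPM). The log2 fold changes of -0.54 ± 0.28 and -0.78 ± 0.30 did not pass (adjusted p = 0.161 and 0.135). Both passed without control replicate 4, at -0.78 (0.0124) and -0.93 (0.0182), in 1 and 2 of 22 alternative fits in all. The first shrank to -0.35 without control replicate 5 (0.408) or depleted replicate 3 (0.493). In female livers alone the differences were -0.24 (0.697) and, with 1 hepatectomised liver, -0.33.

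To place each liver on a single scale, the mean log2 CPM of Per1, Per2, Per3, Nr1d1, Dbp and Tef was subtracted from that of Arntl, Clock, Npas2 and Cry1. These sides are the genes taken to peak late at night and those taken to peak in the day or early evening. Cry1 was placed with the first, but in the controls its levels ran against those of Arntl, Clock and Npas2, as given below. The contrast was -5.56, -4.79, -3.58, -2.43, -5.34 and -4.65 in control replicates 1 to 6. It was -3.86, -3.32, -2.82 and -4.95 in depleted replicates, and -1.73, -3.09 and -3.24 in hepatectomy replicates. Control replicate 4 was higher than every depleted liver and than 2 of the 3 hepatectomised ones, so the controls alone covered most of the range of the other groups. Depleted replicate 4 lay among the 4 lowest controls. The groups had medians of -4.72, -3.59 and -3.09 and overlapped, and the contrast carries no test.

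**Figure D3:**
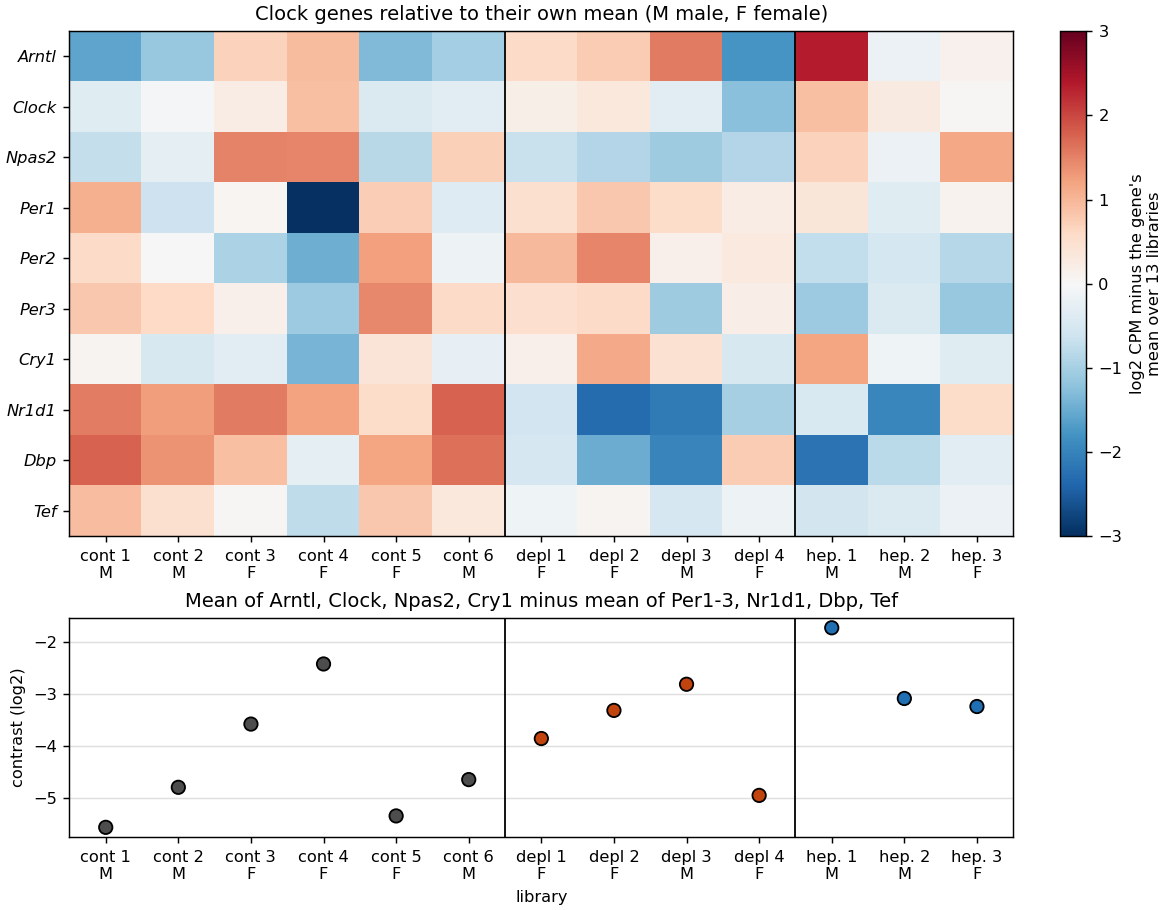
Top, log2 CPM of each clock gene in each library minus that gene's mean over the 13 libraries (cont, control; depl, depleted; hep., hepatectomy). Bottom, the contrast (mean of Arntl, Clock, Npas2 and Cry1 minus mean of the other members) in the same libraries. It ran from -5.56 in control replicate 1 to -1.73 in hepatectomy replicate 1. The contrasts of the depleted livers, all of them below every control for Nr1d1, run from -4.95 to -2.82.

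The contrast holds Nr1d1 itself, so Nr1d1 was set beside the log2 level of Arntl minus that of Dbp, which does not. Control replicate 4, with the highest such difference among controls (-3.45), had an Nr1d1 level of 143 CPM, and control replicate 1, with the lowest (-8.04), had 178 CPM. Control replicates 2, 3, 5 and 6 had differences of -7.17, -4.895, -7.19 and -7.34 and Nr1d1 levels of 146, 181, 90.3 and 211 CPM. Hepatectomy replicates 1 to 3 had differences of -0.0975, -4.03 and -4.20 and Nr1d1 levels of 45.0, 15.8 and 89.9 CPM. Depleted replicates 2 and 3, with the highest differences among depleted livers (-2.43 and -1.14), had 12.4 and 14.0 CPM, and replicates 1 and 4, with the lowest (-3.59 and -7.21), had 41.3 and 30.8 CPM. Depleted replicate 4 had an Arntl level of 0.802 CPM and a Dbp level of 125 CPM, the first below every control and the second inside the control range, and an Nr1d1 level of 30.8 CPM, below every control. Arntl minus Dbp does not give the hour of collection, and the part of that hour in the Nr1d1 levels was not tested. Across the 13 libraries the Pearson r of the deviations from the group mean was -0.08 between Nr1d1 and Arntl, 0.01 with Per1, 0.04 with Tef and 0.41 with Dbp. These and the following r are descriptions over points that share depth and scaling.

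The other members moved together or apart from liver to liver within groups. Deviations of Arntl and Clock had an r of 0.84, and those of Arntl and Dbp an r of -0.91. Per2 went with Tef (0.88) and Per3 (0.87), and Per1 with Tef (0.86). Of the 45 pairs, 23 had a positive and 22 a negative r, 7 were above 0.7 and 4 below -0.7. In the 6 controls alone, 18 pairs were above 0.7 and 16 below -0.7, with Clock and Per3 at -0.96 and Per3 and Cry1 at 0.97. These r rest on 6 points, and control replicate 4 held the lowest or highest level of most members. The share of all gene pairs past 0.7 was not computed. Cry1 went with Per1 (0.73 over the 13 libraries and 0.96 over the controls), Per2 (0.67 and 0.90) and Tef (0.52 and 0.93) in both sets. With Arntl, Clock and Npas2, its own side of the contrast, its r was 0.21, 0.12 and -0.435 over the 13 libraries. Over the controls these r were -0.76, -0.93 and -0.73, against that side.

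**Figure D4:**
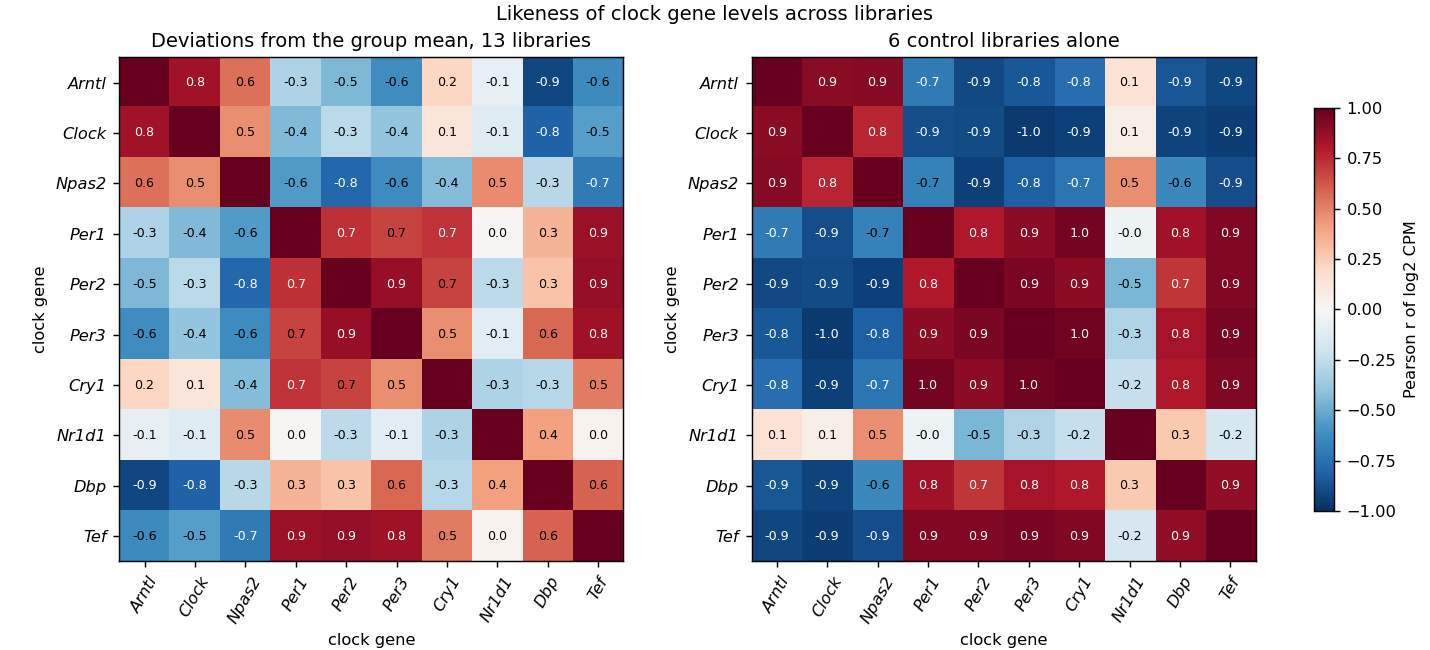
Pearson r of log2 CPM for each pair of clock genes, left for deviations from the group mean over 13 libraries and right for the 6 controls alone. Arntl and Dbp sit at -0.91 and -0.85 in these sets, and the r of Nr1d1 with the other genes lies between -0.46 and 0.48 in both.

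Genes outside the clock list were ranked by the same r with Arntl and with Dbp, among 10760 genes with a mean log2 CPM of at least 1. The 5 most like Arntl were AU022252 (0.90), Tex2 (0.89), Lgalsl (0.89), Clpx (0.88) and Ppp6r2 (0.88), and the 3 most opposed were Slc5a6 (-0.96), Coq10b (-0.89) and Rrp9 (-0.89). Among those most like Dbp were Cd59b (0.93), Ubac1 (0.90), Mrpl47 (0.89) and Pdhb (0.89), and the 3 most opposed were Ddit4 (-0.94), Desi2 (-0.93) and Sel1l (-0.92). Ddit4 was chosen for its values after they were seen. Ddit4, an inhibitor of mTORC1 signalling that stress hormones and starvation induce, rose from 3.08 ± 1.37 CPM in controls to 40.7 ± 22.0 after depletion and 20.6 ± 6.32 after hepatectomy (adjusted p = 4.47e-05 and 0.00421).

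Male and female controls were compared because the groups differ in their share of males. None of the 10 clock genes passed in edgeR, against 0.738% of 13005 tested genes. DESeq2 and limma-voom also called 0, and 2 genes had an unadjusted p under 0.05, against 13.2% of all tested genes. Arntl was lower in males by 1.67 ± 0.56 on the log2 scale (adjusted p = 0.290), at 1.18 ± 0.244 CPM against 3.75 ± 2.35 CPM, and female control replicate 5 (1.10 CPM) was as low as the males. Dbp was higher in males by 0.87 ± 0.34 (adjusted p = 0.353), at 188 to 251.5 CPM in males and 61.2 to 167 CPM in females, ranges that did not overlap. Control replicates 3 and 4, the livers with high Arntl, are both female.

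The list of other core clock genes, among them Nr1d2, Nfil3 and Bhlhe41, held 10 genes. Nr1d2 fell and none rose after depletion, Nfil3 rose and none fell after hepatectomy, and the rest did not pass in edgeR. These 1 of 10 genes in each comparison stand beside 33.9% and 8.42% of all tested genes. The median log2 fold changes of the list were -0.45 and -0.31, against -0.03 and -0.02 over all genes. Nr1d2 encodes REV-ERB beta, the paralog of the Nr1d1 product. It stood at 106.5 to 163 CPM in controls, 62.0 to 87.1 CPM in depleted and 114 to 126 CPM in hepatectomised livers. Every depleted liver was thus below every other liver for Nr1d2. The log2 fold change after depletion was -0.93 ± 0.15 (adjusted p = 0.000466) and passed in all 22 alternative fits. Against the hepatectomised livers it was -0.67 ± 0.17 (adjusted p = 0.0146). That call was lost without depleted replicate 3 (adjusted p = 0.0968) or hepatectomy replicate 3 (0.0797), with scaling by library size (0.170) and with the replicate block (0.0508). It was also lost in female livers alone (-0.67, with 1 hepatectomised liver).

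Nfil3 encodes E4BP4, the repressor that competes with DBP and TEF for D-box sites. It stood at 3.51 to 14.0 CPM in controls, 4.93 to 35.1 CPM in depleted and 21.9 to 69.2 CPM in hepatectomised livers, the last above every control. The log2 fold change after hepatectomy was 1.96 ± 0.41 (adjusted p = 0.0136). The call was lost without hepatectomy replicate 2 (1.79, adjusted p = 0.0568) and in female livers alone (1.54, with 1 hepatectomised liver). Bhlhe41 encodes DEC2, an E-box repressor, and was higher in male than in female controls by 2.53 ± 0.24 on the log2 scale (adjusted p = 0.00216). Of the 8 kinases and ubiquitin ligases that act on clock proteins, Btrc fell after depletion, by 0.47 ± 0.13 (adjusted p = 0.0153), which is 1 of 8 beside 33.9% of all tested genes. The call held in 18 of 22 alternative fits and was lost with scaling by library size (0.0967), with the replicate block (0.0630), in female livers alone (0.0844) and without depleted replicate 3 (0.0673). After hepatectomy, beside 8.42% of all tested genes, 0 of the 8 passed in edgeR, with 0 at an unadjusted p under 0.05 and 0 with DESeq2 or limma-voom.

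Clock output genes of the liver, 14 in all, split in direction after depletion. Lpin1, Nampt and Alas1 rose, Elovl3, Cyp7a1, Ppara and 2 more fell, and 6 did not pass, with a median log2 fold change of -0.41. Over all tested genes 33.9% were called and the median was -0.03. Cyp7a1, the rate-limiting enzyme of bile acid synthesis, stood at 117 to 343 CPM in controls and at 5.53 to 27.6 CPM in depleted livers, a change of -3.71 ± 0.50 (adjusted p = 0.000171). Nampt, which makes the NAD precursor NMN, stood at 56.1 to 139 CPM in controls and at 222 to 303 CPM in depleted livers, a change of 1.55 ± 0.22 (adjusted p = 0.000203). The calls of Cyp7a1, Nampt and Ppara (a nuclear receptor for fatty acids) held in all 22 alternative fits, and those of Alas1 (the first enzyme of heme synthesis) and Lpin1 in 9 and 14. Elovl3, a fatty acid elongase, fell by 4.14 ± 0.87 (adjusted p = 0.00315), but was also higher in male than in female controls by 5.40 ± 0.65 (adjusted p = 0.0286, passed in 5 of 11 alternative fits), and in female livers alone the difference after depletion was -2.89 and did not pass (adjusted p = 0.0610).

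After hepatectomy Lpin1 and Por rose, Cyp7a1 fell and 11 output genes did not pass, beside 8.42% of all tested genes called. The list's median log2 fold change was -0.22, against -0.02 over all genes. Cyp7a1 was below every control in all 3 livers, a change of -2.03 ± 0.52 (adjusted p = 0.0331). Its call held in 16 of 22 alternative fits and was lost without control replicate 6 (adjusted p = 0.0697) or any 1 hepatectomised liver (0.0653 to 0.129). It was also lost with the replicate block (0.0621) and in female livers alone (-2.76, with 1 hepatectomised liver). Lpin1, a phosphatidate phosphatase, and Por, the electron donor of cytochromes P450, held in 14 and 17 of 22 and were lost with the replicate block (adjusted p = 0.115 and 0.0564).

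Hormones, feeding and temperature can set the phase of the liver clock, and 3 further lists cover genes that respond to them. Of 8 glucocorticoid-responsive genes, Fkbp5, Dusp1, Zbtb16 and Tsc22d3 rose after depletion and Fkbp5, Zbtb16 and Dusp1 after hepatectomy, beside 33.9% and 8.42% of all tested genes called. The list's median log2 fold changes were 0.85 and 1.20, against -0.03 and -0.02 over all genes. Fkbp5, a co-chaperone of the glucocorticoid receptor, stood at 15.0 to 52.2 CPM in controls, 93.7 to 347 CPM in depleted and 131 to 322 CPM in hepatectomised livers. Its call held in 22 of 22 alternative fits after depletion and in 21 of 22 after hepatectomy, while those of Zbtb16 held in 10 and 11 and those of Dusp1 in 22 and 6. With the replicate block the calls of Zbtb16 and Dusp1 after hepatectomy were lost (adjusted p = 0.234 and 0.178).

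Of 10 fasting and feeding genes, Igfbp1 and Pck1 rose and Cpt1a and Srebf1 fell after depletion, beside 33.9% of all tested genes called. The call of Cpt1a held in 22 of 22 alternative fits. Those of Pck1, Igfbp1 and Srebf1 were lost without depleted replicate 3 (adjusted p = 0.0670, 0.122 and 0.116), and those of Igfbp1 and Srebf1 with the replicate block (0.164 and 0.112). After hepatectomy Igfbp1, Pdk4, Angptl4 and Pck1 rose and Srebf1 fell, beside 8.42% of all tested genes called. Of these Angptl4 alone kept its call with the replicate block (adjusted p = 0.0890 to 0.140 for the other 4). Igfbp1, which insulin represses, stood at 6.36 to 58.0 CPM in controls, 18.5 to 351 CPM in depleted and 531 to 835 CPM in hepatectomised livers. Of 8 temperature-responsive genes, Rbm3, a cold-induced RNA-binding protein, rose after depletion, from a control range of 9.55 to 37.0 CPM to 66.2 to 86.4 CPM. None of the 8 passed after hepatectomy in edgeR, with 6 at an unadjusted p under 0.05, 3 called by DESeq2 and 1 by limma-voom. The part of the 4 glucocorticoid-responsive and 4 feeding genes called after depletion in the Nr1d1 result was not tested.

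Between depleted and hepatectomised livers, 2 of the 10 other core clock genes (Nr1d2 above, and Nfil3 at -1.45 ± 0.45 log2, adjusted p = 0.0359, passed in 14 of 22 fits) were lower in the depleted livers. The share of all tested genes called in this comparison, for these and the following lists, was 23.4%. Of the output genes Nampt was higher and Elovl3, Cyp7a1 and Por were lower, in calls that held in 21, 21, 11 and 5 of 22 alternative fits. Nampt stood at 86.1 to 99.3 CPM after hepatectomy, below every depleted liver, a difference of 1.48 ± 0.28 (adjusted p = 0.00274). Of the temperature-responsive genes Cirbp and Rbm3, both cold-induced, were higher in depleted livers (1.56 ± 0.36 and 1.26 ± 0.33, adjusted p = 0.00862 and 0.0171), and the heat shock chaperones Hsph1 and Hsp90aa1 were lower (-1.28 ± 0.37 and -1.25 ± 0.40, adjusted p = 0.0249 and 0.0404). These calls held in 20, 18, 17 and 11 of 22 fits. Dusp1 was higher, a call that held in 9 of 22 fits. The fasting genes Angptl4 and Cpt1a were lower in 22 of 22 fits and Pdk4 in 20, lost with the replicate block (adjusted p = 0.0524) and without hepatectomy replicate 2. Of the kinases and ubiquitin ligases 0 passed in edgeR, with 0 at an unadjusted p under 0.05 and 0 with DESeq2 or limma-voom.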

How the data were processed

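RNA of 13 whole livers was made into TruSeq stranded mRNA libraries, per the labels' protocols. The authors deposited raw read counts per gene, with exon coordinates and lengths. STAR 2.7.1a, SAMtools 1.15.1, featureCounts 1.6.4 and the build mm10 are named in the submitters' processing notes. Strand and multi-mapping settings are not given in the sources used here, so reads of overlapping or near-identical genes may be shared. Of 22048 gene IDs, 21741 matched a symbol in GENCODE M21, 307 did not, and coordinates are GRCm38.

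Counts were tested with edgeR 4.0.16 in R 4.3.3. The steps were filterByExpr on groups (13831 genes kept), TMM scaling, a model of group and sex over all 13 libraries, the robust quasi-likelihood F-test, two-sided, and Benjamini-Hochberg adjustment over all genes tested with a threshold of 0.05. The sex contrast was fitted on the 6 controls (13005 genes). CPM are counts divided by the TMM-scaled library size. Log2 CPM used a prior count of 2. The script was tested on simulated data. Alternatives were other scalings, no filter, DESeq2 1.42.0, limma-voom (limma 3.58.1), no sex term, only the groups compared, female livers only, a replicate block and leaving out each library.

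The members and lists were chosen with earlier results of these data known. All members are named, and of each list up to 6 genes per comparison that passed, largest change first. For Arntl and Dbp, the 5 genes with the highest and 3 with the lowest r are named, except for an item that is not reported here. Thra, Sphk2 and Camta1 were added because they overlap members, and Ddit4 is given with values as the gene most opposed to Dbp. Lists are other core clock genes, clock protein kinases and ubiquitin ligases, clock output genes, temperature-responsive, glucocorticoid-responsive and fasting and feeding genes, with markers of hepatocytes, stellate, Kupffer, monocyte and neutrophil, T, sinusoidal endothelial and bile duct cells and of proliferation.

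Replicates of a group differed beyond counting noise: the lowest median chi-square per gene between libraries was 4.60, over genes with at least 50 summed counts. Replicate numbers come from the titles and descriptions. The titles give a replicate number only for the hepatectomised livers, and they pair no livers across groups. Deviations of same-numbered hepatectomised and control livers correlated at 0.23, 0.11 and 0.52. These pairs share their sex, and with sex removed r was 0.08, -0.19 and -0.05. In the other comparisons not every pair was above 0.1. The labels name no batch, so a batch and the groups cannot be told apart.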

Additional observations from a re-analysis of the deposited data

Results flagged for a closer look

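Npas2 differed between the depleted and the hepatectomised livers, by -2.38 on the log2 scale in the edgeR test (adjusted p = 0.0323), which is the test of whether its 2 differences from the shared controls differ. It rests on 13 counts in 4 depleted and 32 counts in 3 hepatectomised livers, lower in 4 of 4 depleted livers. With only these 2 groups Npas2 did not pass the filter on low counts, and 11 of the 21 alternative fits that tested it kept the call, so it is given as a value near the detection floor. No sample of a clock gene, or of the clock contrast, stood apart from the rest of its group by Dixon's test in 22 groups of 4 or 6 livers, where chance flags about 1 in 20.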

How the results depend on the processing

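Of the fits of single clock genes under the alternatives, 205 of 219 kept their direction and side of the threshold for depleted against control, 194 of 220 for hepatectomy against control, 195 of 219 for depleted against hepatectomy and 101 of 110 between the sexes. The fall of Nr1d1 after depletion held in all 22 alternatives. The causes of the following changes were not tested. Npas2 has no value with only the 2 groups compared in either comparison of the depleted livers, where it did not pass the filter on low counts. Female livers after hepatectomy number 1, and its spread is assumed to be that of the other groups.

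Genes called after depletion numbered 4692, and 2726 in female livers only and 2960 to 4928 without 1 library (lowest without depleted replicate 3). Clock genes called there numbered 2, and 1 with only the 2 groups, 1 in female livers and 1 to 4 without 1 library (4 without control replicate 4). After hepatectomy 1164 genes became 2192 with library size alone, 1939 with DESeq2, 90 in female livers and 483 to 1458 without 1 library (483 without hepatectomy replicate 2, 692 and 742 without control replicates 1 and 2), and 0 clock genes became 4, 3 (DESeq2), 2 (limma-voom) and 0 to 3 without 1 library. Between the interventions 3236 genes became 2105 with only the 2 groups, 1263 in female livers and 1709 to 3850 without 1 library (lowest without depleted replicate 3), and 1 clock gene became 2 with DESeq2, 0 with limma-voom, 0 without the sex term, 0 with only the 2 groups, 0 in female livers and 0 to 2 without 1 library. Between the sexes 96 genes became 445 with DESeq2 and 32 to 200 without 1 control (lowest without replicate 1, highest without replicate 2).

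With the replicate block, the pairing of equal numbers gave 3887, 632 and 3170 called genes for the 3 comparisons and 3, 0 and 2 clock genes. Per2 then passed for depleted against control (1.14, adjusted p = 0.0217) and against hepatectomy (1.64, 0.0104), while Per1 after hepatectomy turned to 0.08343 and Dbp between the interventions to -0.02265.

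Library size alone moved the all-gene median from -0.03 to 0.08, from -0.02 to -0.24 and from -0.05 to 0.27 (log2). Higher and lower calls went from 2614 and 2078 to 2884 and 1471 after depletion, from 838 and 326 to 626 and 1566 after hepatectomy, and from 1837 and 1399 to 3102 and 610 between them.

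Directions that turned belonged to clock genes that had not passed. In female livers Arntl turned to -0.1786 after depletion and, after hepatectomy, Arntl to -0.265, Clock to -0.2743, Per1 to 0.1924 and Cry1 to -0.07237, and between the interventions Arntl to 0.08639. With only the 2 groups, Arntl turned to 0.01841 and Dbp to -0.2021 between the interventions, and with limma-voom Per1 to 0.3159 after hepatectomy. Without 1 library, ranges that crossed 0 were -0.4339 to 0.01481 for Clock after depletion. After hepatectomy they were -0.009392 to 0.5156 for Npas2, -0.2497 to 0.3523 for Per1 and -0.003677 to 0.887 for Cry1. Between the interventions they were -1.808 to 0.7066 for Arntl, -0.201 to 0.6967 for Cry1 and -0.2608 to 1.097 for Dbp. Between the sexes they were -0.4108 to 1.001 for Per1, -0.338 to 1.354 for Per2, -0.2772 to 0.9926 for Per3 and -0.2797 to 0.572 for Cry1. The alternatives for list genes were chosen after seeing the data. Depth limits Npas2, which had 3 to 24 counts per liver.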
